A study of Mus musculus with 28 samples.

Results

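The enzymes and regulators of glycolysis and glycogen metabolism were followed in the calf muscles of mice with and without LKB1, at rest and after contraction. The members were chosen by symbol: a list of 38 genes was matched to the annotated probes of the array, 34 had a probe, and 27 passed a limit on dim signal and were tested among 8389 genes. Each gene was represented by its brightest probe. Gpi1, Pfkfb1, Eno1 and Ldhb were not analysed here. Hk1, Pgk1, Slc16a1, Gpd1l, Gbe1, Pgm2 and Ppp1r3a had only dim probes, each detected on 0 of the 7 arrays with an assigned detection p-value. A dim probe does not show that a gene was silent, since Pgk1, an enzyme that glycolysis requires, was among these 7.

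Glycolysis splits glucose or glucose 6-phosphate into pyruvate and yields ATP, and lactate dehydrogenase turns the pyruvate into lactate when the flux outruns mitochondria. Muscle keeps glucose as glycogen, a branched polymer built on glycogenin by glycogen synthase and taken apart by glycogen phosphorylase. Contraction activates the phosphorylase through calcium and phosphorylase kinase, so the same granule is spent during work and rebuilt afterwards. LKB1, encoded by Stk11, is a kinase that activates AMPK, an energy sensor, and several kinases related to AMPK.

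The samples were the combined gastrocnemius, plantaris and soleus of female FVB mice aged 4 months. The 28 samples formed 4 groups of 7: wild type at rest, wild type after 15 min of contraction driven in situ through the sciatic nerve, and the same pair of states in a knockout of LKB1 restricted to skeletal muscle. The labels place the collection of the contracted muscles directly after the stimulation. The sources used here do not give the promoter or Cre line that restricted the knockout to muscle. The labels do not say whether samples were separate animals or whether a resting and a contracted sample with the same number came from 1 mouse, so each p-value reflects only how these samples varied.

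Values are log2 probe intensity after background correction with an offset of 50, which shrinks the differences of dim probes towards 0. Total intensity cannot show depth here because all arrays had been forced to 1 distribution, and between 41.2% and 41.5% of probes on each array were over the dim limit of 24. Stk11 itself separated the genotypes: its highest knockout value was 9.32 and its lowest wild-type value 10.10. Its level fell by 1.36 (SE 0.12, limma adjusted p = 1.082e-07) at rest and fell by 1.48 (SE 0.12, limma adjusted p = 1.678e-08) after contraction. All 8 muscle-defining markers tested were bright, with a summed intensity between 142100 and 190000 on every array.

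Some samples stood apart in markers of other fibres or cells. The summed intensity of 10 slow-fibre genes was 145800 to 204000 in resting wild type but reached down to 34610 in contracted wild type, 24190 in resting knockout and 61210 in contracted knockout, each time in sample 4. Resting knockout samples 1 and 5 (115000 and 145000) and contracted knockout samples 1 and 6 (131100 and 135700) were also below the resting wild-type range. The knockout was lower in 9 of these 10 genes at rest (median -0.54) and higher in 6 of 10 after contraction (median 0.07). In either state 0 passed limma's adjusted p, and with the sample number as a block across genotypes 1 fell at rest. Of 6 adipocyte markers 3 were tested, Adipoq, Lep and Plin1, while the probes of Fabp4 and Retn were over the dim limit on 0 arrays. Their sum ran from 540 to 3485 at rest and 318.1 to 2705 after contraction in wild type, and from 166 to 3247 and 165.3 to 7605 in the knockout, and the highest 2 contracted knockout samples were numbers 5 and 2. Of 8 lymphocyte markers 4 were tested, and their sum ran from 1.82 to 4122 over all samples. Of 9 macrophage markers 5 were tested, and their sum was 844.6 to 2201 and 843.6 to 2544 in wild type at rest and after contraction, against 1161 to 5812 and 1041 to 8097 in the knockout. Lists of other cell types were compared between the genotypes too. After contraction endothelial and mural markers had a negative difference in 9 of 9 genes (median -0.21, 0 passed limma's adjusted p and 1 had an unadjusted p under 0.05), and at rest in 8 of 9 (median -0.26). Fibroblast markers had a positive one in 5 of 6 (median 0.41), of which Lum rose by 1.12 (limma adjusted p = 0.0242), and the myogenic factor Myog rose by 0.77 (limma adjusted p = 0.0492). The part of these fibres and cells in the member differences was not tested. In such bulk tissue fewer cells of a type and less RNA per cell cannot be told apart.

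**Figure D1:**
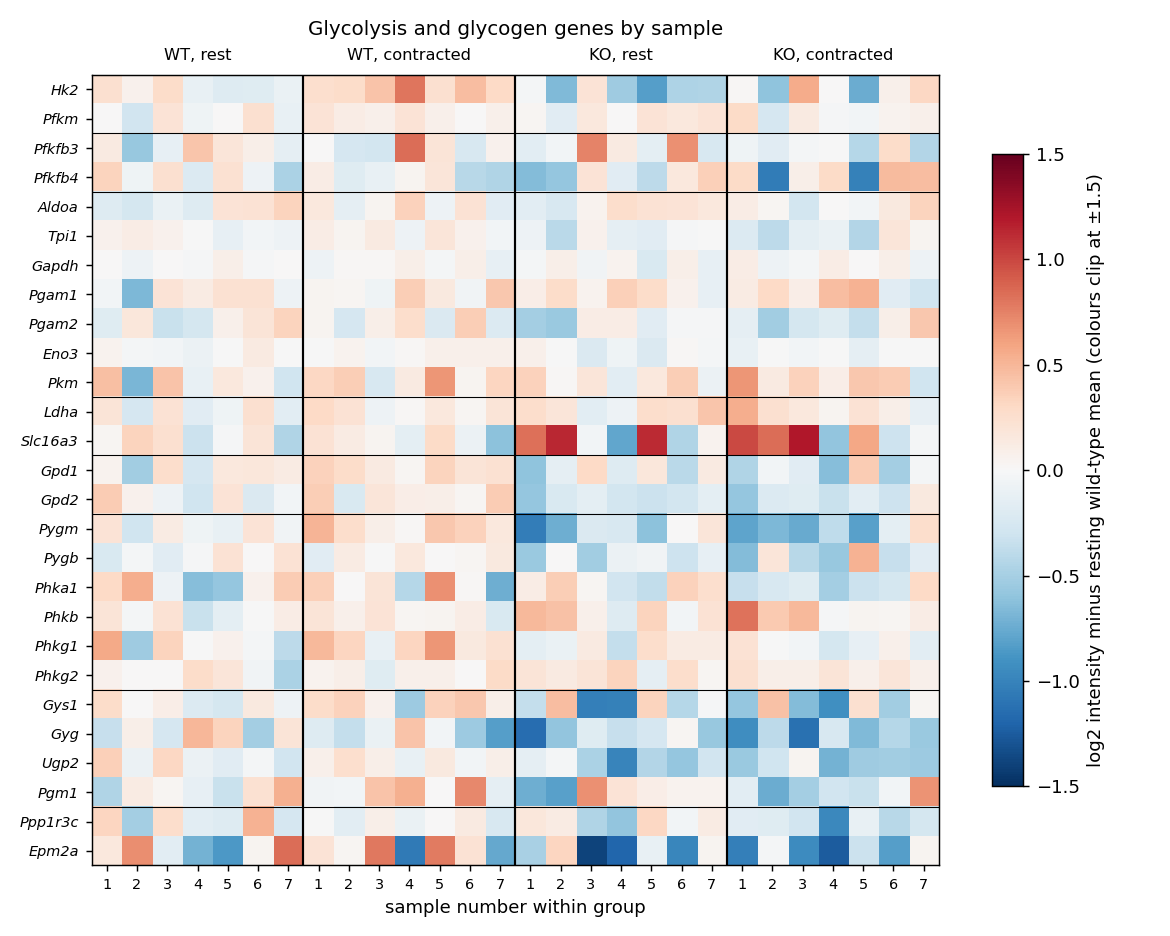
Heat map of the 27 tested members (rows, ordered by role, black lines between roles) in the 28 samples (columns, 4 groups of 7), as log2 intensity minus the resting wild-type mean of that gene, with colours limited to ±1.5. Blue cells for Pygm, Gyg and Ugp2 lie mostly in the knockout columns, Hk2 is redder in both contracted groups than in the resting group of the same genotype, and the rows of Gapdh and Eno3 are nearly white.

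The genotype comparison asked how far the glycolytic and glycogen transcripts differed when LKB1 was missing, first in unstimulated muscle and then directly after work. After contraction 3 of the 27 tested members fell in the knockout and none rose: Pygm, the muscle glycogen phosphorylase, Ugp2, which makes the UDP-glucose that glycogen synthase uses, and Gpd2, the mitochondrial glycerol 3-phosphate dehydrogenase. The knockout levels of these genes were 60.5%, 69.9% and 77.8% of wild type. Over all genes tested 4.33% fell and 4.54% rose in the same comparison. The median member difference was -0.21 against -0.01 over all genes, and 70.4% of the members were lower in the knockout against 52.4% of all genes.

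At rest 0 of the 27 members passed limma's adjusted p of 0.05 in either direction, where 1.93% of all genes fell and 1.82% rose. There 5 members, Ugp2, Gpd2, Hk2, Gyg and Pygm, had an unadjusted limma p under 0.05, each lower in the knockout, beside 21.8% of all genes. After contraction 7 members did, beside 26.3% of all genes, a share close to that of the members. The median member difference at rest was -0.06 against -0.01 over all genes. No member had groups that did not overlap in either state, whereas 0.954% of all genes at rest and 1.16% after contraction had such groups. Across genotypes, same-numbered samples correlated little in the mean (0.17 at rest and 0.001 after contraction). Blocking on that number left 1 member that fell after contraction, Ugp2, beside 0.834% of all genes. Weighting the arrays by quality raised the members that fell after contraction to 9, beside 1310 genes in all, and gave 1 at rest, beside 470. Leaving out the 6 samples with the most adipocyte signal, a choice made after seeing the data, gave 6 beside 370 genes and 2 beside 206. Leaving out 1 sample at a time gave 2 to 6 after contraction, the 6 without contracted knockout sample 7, beside 892 genes, and at rest it was 1 without resting knockout sample 2, resting knockout sample 7 or contracted knockout sample 3.

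**Figure D2:**
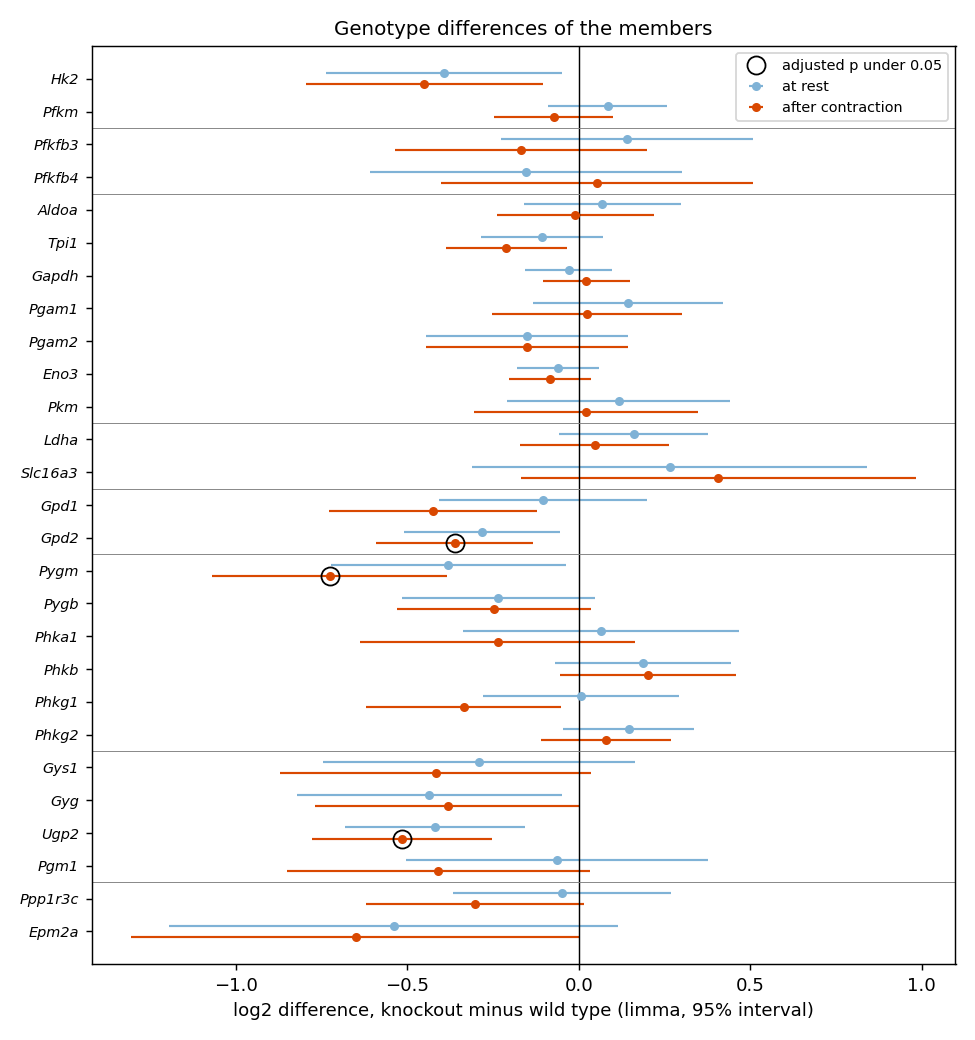
Log2 difference, knockout minus wild type, of the 27 tested members at rest and after contraction, with 95% confidence intervals from limma; open circles mark an adjusted p under 0.05. The 3 circled genes, Pygm, Ugp2 and Gpd2, lie left of 0 after contraction, and the intervals of most enzymes from Aldoa to Pkm cross 0.

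Among the genes of glycogen breakdown, Pygm (probe ILMN_1220498) releases glucose 1-phosphate from glycogen in muscle. Its log2 intensity (lowest, median, highest of 7) was 12.75, 12.98 and 13.25 in resting wild type and 13.06, 13.31 and 13.55 in contracted wild type. In the knockout it was 12.00, 12.80 and 13.23 at rest and 12.23, 12.37 and 13.31 after contraction. Of the contracted knockout samples 6 of 7 lay below every contracted wild-type sample, and the exception, sample 7, was in the middle of the wild-type range. Pygm fell by 0.73 after contraction (SE 0.17, limma adjusted p = 0.00809, exact two-sided permutation p = 0.00291). With the sample number as a block across genotypes the limma adjusted p was 0.0631. At rest the difference was -0.38 (SE 0.17, limma adjusted p = 0.185), with 3 of 7 knockout samples below every wild-type sample and sample 7 near the highest of them.

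The other members of this group did not pass. Pygb, the phosphorylase isoform named for brain, differed by -0.23 at rest and by -0.25 after contraction (SE 0.14 each). Phosphorylase kinase switches the phosphorylase on, and its measured subunits did not share a direction after contraction. The muscle catalytic subunit Phkg1 was at -0.34 (SE 0.14, limma adjusted p = 0.12) and the regulatory subunit Phka1 at -0.24 (SE 0.20), whereas the regulatory subunit Phkb was at 0.20 (SE 0.13) and the catalytic subunit Phkg2 at 0.08 (SE 0.09). At rest Phkg1 was at 0.01 (SE 0.14), and the test of the change between the states gave -0.34 (SE 0.20, limma adjusted p = 1). With array weights the contracted difference of Phkg1 passed, at -0.34 (limma adjusted p = 0.03755). The second of 3 kept probes of Phka1 differed by 0.31 at rest and by -0.01 after contraction. The third, dim at a mean intensity of 31.3, differed by 0.10 and 0.13.

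All 4 tested genes of glycogen synthesis had a negative difference in both states, and 1 of them passed. Ugp2 (probe ILMN_1244631) ran through 11.86, 12.06 and 12.50 in resting wild type and 12.03, 12.24 and 12.39 in contracted wild type (lowest, median, highest). Its knockout values were 11.15, 11.70 and 12.12 at rest and 11.44, 11.61 and 12.18 after contraction. After contraction 6 of 7 knockout samples were below every wild-type sample, and sample 3 lay inside the wild-type range. Ugp2 fell by 0.52 (SE 0.13, limma adjusted p = 0.0128, exact two-sided permutation p = 0.00175). At rest 5 of 7 knockout samples were below every wild-type sample, and the difference of -0.42 (SE 0.13) missed the threshold (limma adjusted p = 0.063).

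Gyg encodes glycogenin, the protein primer on which a granule starts. It differed by -0.44 (SE 0.19) at rest and by -0.38 (SE 0.19) after contraction, and its second probe gave -0.48 and -0.46. Gys1, the muscle glycogen synthase, differed by -0.29 (SE 0.22) and -0.42 (SE 0.22), and its second probe gave -0.16 and -0.42. Its spread was wider in the knockout (SD 0.59 at rest and 0.51 after contraction) than in wild type (0.19 and 0.33). Pgm1, a phosphoglucomutase that links glucose 1-phosphate to glucose 6-phosphate, differed by -0.06 (SE 0.22) at rest and by -0.41 (SE 0.22) after contraction. Without the 6 adipocyte-high samples Gys1 passed in both states, at -0.61 (limma adjusted p = 0.0361) and -0.78 (limma adjusted p = 0.00409), and Ugp2 passed at rest at -0.52 (limma adjusted p = 0.0397). The part of adipocyte RNA in these differences was not tested.

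Among the proteins that bind the granule, Ppp1r3c, a protein phosphatase subunit that targets glycogen and favours its synthesis, differed by -0.05 (SE 0.16) at rest and by -0.30 (SE 0.16) after contraction. Epm2a encodes laforin, a phosphatase that removes phosphate from glycogen, and its mean difference was -0.54 (SE 0.32) at rest and -0.65 (SE 0.32, limma adjusted p = 0.193) after contraction. The spread of Epm2a was wide in every group, with an SD of 0.51 to 0.71, and neither gene passed.

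At the entry of glycolysis, hexokinase 2, the insulin- and exercise-responsive hexokinase of muscle, traps glucose as glucose 6-phosphate. The log2 intensity of Hk2 (lowest, median, highest) was 13.63, 13.73 and 14.11 in resting wild type and 14.07, 14.14 and 14.64 in contracted wild type. The knockout values were 13.01, 13.36 and 14.04 at rest and 13.09, 13.85 and 14.39 after contraction. In each state 5 of 7 knockout samples were below every wild-type sample, and samples 2 and 5 were the lowest knockout samples in both. The difference was -0.39 (SE 0.17, limma adjusted p = 0.173) at rest and -0.45 (SE 0.17, limma adjusted p = 0.0864) after contraction. Samples 2 and 5 were also the knockout samples with the highest adipocyte sums, 3247 and 3198 at rest and 5627 and 7605 after contraction. The 6 adipocyte-high samples also included contracted wild-type sample 4, the highest of its group for Hk2 at 14.64. Without these 6 samples the contracted difference was -0.14 (limma adjusted p = 0.562). The part of adipocyte RNA in it was not tested. It passed on leaving out contracted knockout sample 3 (limma adjusted p = 0.0446) or sample 7 (limma adjusted p = 0.0367).

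Pfkm, the muscle phosphofructokinase that commits sugar to glycolysis, differed by 0.08 (SE 0.08) at rest and by -0.07 (SE 0.08) after contraction. Its probes differed: the second of 3 kept probes gave 0.09 at rest and -0.14 after contraction, and the third gave -0.37 and -0.51 (SE 0.25 each). The third was the least bright, with a mean intensity of 3126, but was over the dim limit on 28 of 28 arrays. The probe used had a mean of 38550, towards the highest value of 50215, where differences can be compressed. Pfkfb3 and Pfkfb4 make and remove fructose 2,6-bisphosphate, the activator of phosphofructokinase. They differed by -0.17 (SE 0.18) and 0.05 (SE 0.22) after contraction. Pfkfb3 was over the dim limit on 16 of 28 arrays, so its differences are compressed.

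**Figure D3:**
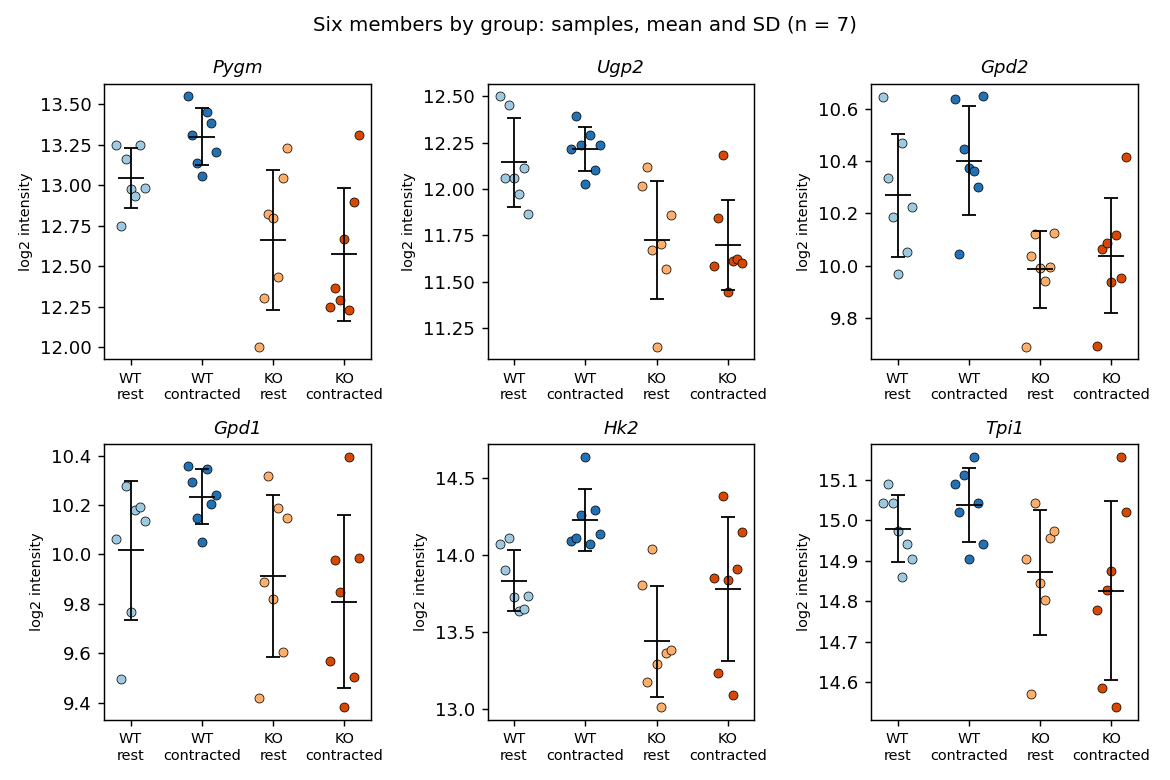
Log2 intensity of Pygm, Ugp2, Gpd2, Gpd1, Hk2 and Tpi1 in the 4 groups, with a point for each of the 7 samples and bars for the mean and SD. The contracted knockout points of Pygm and Ugp2 lie below the contracted wild-type points except for 1 sample each, and the groups of Gpd2 and Hk2 overlap more.

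Promoter windows are shown for the 2 members with the smallest adjusted p after contraction and for Hk2, whose contracted samples were above the resting samples of the same number in both genotypes. Each window is RefSeq sequence of build GRCm38.p6 from 250 bases before to 50 after an annotated start, printed 5′ to 3′ on the strand of the gene. Capitals mark ACGTG or its reverse complement CACGT, the core of the element bound by hypoxia-inducible factors, which are known regulators of glycolytic genes. Pygm is read from chr19:6384158-6384457 on the plus strand, Ugp2 from chr11:21371218-21371517 on the minus strand and Hk2 from chr6:82774405-82774704 on the minus strand.
Pygm: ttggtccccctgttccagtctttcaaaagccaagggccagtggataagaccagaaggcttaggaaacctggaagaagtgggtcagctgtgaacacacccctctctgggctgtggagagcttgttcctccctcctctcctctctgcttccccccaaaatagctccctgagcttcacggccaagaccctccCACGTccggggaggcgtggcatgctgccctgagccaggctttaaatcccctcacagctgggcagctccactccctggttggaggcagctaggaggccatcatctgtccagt
Ugp2: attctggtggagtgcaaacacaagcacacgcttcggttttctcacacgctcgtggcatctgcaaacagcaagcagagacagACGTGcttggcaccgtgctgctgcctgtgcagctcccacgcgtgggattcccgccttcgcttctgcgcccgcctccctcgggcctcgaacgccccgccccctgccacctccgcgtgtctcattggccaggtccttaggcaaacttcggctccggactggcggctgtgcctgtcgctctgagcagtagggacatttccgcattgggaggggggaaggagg
Hk2: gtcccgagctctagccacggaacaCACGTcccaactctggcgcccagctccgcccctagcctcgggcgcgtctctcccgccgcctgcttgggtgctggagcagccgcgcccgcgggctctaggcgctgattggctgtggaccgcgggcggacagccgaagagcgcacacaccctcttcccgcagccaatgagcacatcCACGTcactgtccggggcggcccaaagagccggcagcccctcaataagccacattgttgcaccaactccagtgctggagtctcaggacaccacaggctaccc
The core begins 61 bases before the start in Pygm and 169 bases before it in this window of Ugp2, whose second annotated start has no such core. Hk2 holds 2, at 226 and 52 bases before the start. Windows were found for 26 of the 27 tested members, and 17 of these genes had at least 1 core on either strand. By window the share was 55.6% of 36 member windows, 24.9% of 8853 windows of tested genes and 19.6% of all 32851 windows, with a mean GC content of 60.7% for members and 60.2% for tested genes. The E-box CACGTG, which contains ACGTG and is bound by Myc and related factors, was in 13.9% of member windows, 9.9% of tested-gene windows and 7.2% of all. The letters TGACG, a core of CREB sites, also searched on both strands, was in 30.6%, 29.4% and 20.8%, and AAGGTCA, a core of estrogen-related receptor sites, was in 2.8%, 3.4% and 4.7%. A match describes the letters in a window and is not evidence of binding.

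The genotype differences were small in the triose steps to pyruvate. The 7 tested genes, Aldoa, Tpi1, Gapdh, Pgam1, Pgam2, Eno3 and Pkm, differed between -0.15 and 0.14 at rest and between -0.21 and 0.02 after contraction, and none passed. Their 95% intervals reached from -0.44 to 0.44 at rest and from -0.45 to 0.35 after contraction. The brightest probes of Gapdh and Eno3 lay near the top of the intensity scale, whose highest value was 50215, where differences can be compressed. A second kept probe of Gapdh, with a mean intensity of 27850, differed by -0.02 at rest and by -0.05 after contraction (SE 0.06 each). The part of compression in these small differences was not tested.

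Tpi1, triose phosphate isomerase, had the smallest p of these. It was 14.86, 14.97 and 15.09 in resting wild type and 14.91, 15.04 and 15.16 in contracted wild type, against 14.57, 14.91 and 15.04 in resting knockout and 14.54, 14.83 and 15.16 in contracted knockout (lowest, median, highest). After contraction 5 of 7 knockout samples were below every wild-type sample, while sample 6, at 15.16, was at the wild-type maximum. The difference was -0.21 (SE 0.09, limma adjusted p = 0.114), and it passed without contracted knockout sample 6 (limma adjusted p = 0.0474) or sample 7 (limma adjusted p = 0.0486). The other kept probes of Tpi1 gave -0.17 and 0.02. Eno3, the muscle enolase, differed by -0.08 (SE 0.06), Aldoa, the muscle aldolase, by -0.01 (SE 0.11) and Pkm, pyruvate kinase, by 0.02 (SE 0.16).

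On the lactate side, Ldha, the muscle-type lactate dehydrogenase subunit, was at 0.16 (SE 0.11) at rest and at 0.05 (SE 0.11) after contraction. Slc16a3, which encodes the lactate exporter MCT4, was at 0.26 (SE 0.28) and 0.41 (SE 0.28). The knockout samples of Slc16a3 were spread from 6.73 to 8.65 at rest and from 6.92 to 8.71 after contraction, against 7.07 to 7.85 and 6.90 to 7.80 in wild type. Their SD was 0.77 and 0.69 in the knockout and 0.29 and 0.30 in wild type. A second kept probe of Slc16a3, dim at a mean intensity of 24.1, differed by 0.04 at rest and by -0.01 after contraction.

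The glycerol 3-phosphate shuttle carries reducing equivalents of cytosolic NADH to the respiratory chain. Gpd2 (probe ILMN_1247257), its mitochondrial enzyme, was 9.97, 10.22 and 10.64 in resting wild type and 10.04, 10.37 and 10.65 in contracted wild type (lowest, median, highest). The knockout values were 9.69, 10.00 and 10.13 at rest and 9.69, 10.06 and 10.42 after contraction. The groups overlapped in both states, with 2 of 7 and 3 of 7 knockout samples below every wild-type sample. Gpd2 fell by 0.36 after contraction (SE 0.11, limma adjusted p = 0.0401, exact two-sided permutation p = 0.0122). Its call was lost without contracted wild-type sample 1, 3, 5, 6 or 7 or contracted knockout sample 1, 2, 3, 4 or 6, where the adjusted p reached 0.113. At rest the difference was -0.28 (SE 0.11, limma adjusted p = 0.14).

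Gpd1 is the cytosolic partner of that shuttle. It was 9.50, 10.14 and 10.28 in resting wild type and 10.05, 10.24 and 10.36 in contracted wild type, and 9.42, 9.89 and 10.32 in resting and 9.38, 9.85 and 10.39 in contracted knockout (lowest, median, highest). After contraction 6 of 7 knockout samples were below every wild-type sample, and sample 5 was above all of them. Its difference was -0.10 (SE 0.15) at rest and -0.43 (SE 0.15, limma adjusted p = 0.0687) after contraction. It passed without contracted knockout sample 5 (limma adjusted p = 0.0221) or sample 7 (limma adjusted p = 0.0381). Sample 5 of the contracted knockout also had the highest adipocyte sum of all samples, 7605. Without the adipocyte-high samples the difference was -0.61 (limma adjusted p = 0.0147).

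The contraction comparison asked which of these transcripts had moved by the end of 15 min of stimulated work. No member passed limma's adjusted p of 0.05 in either genotype, where 0 of all genes in wild type and 0.0119% of all genes in the knockout did. At an unadjusted limma p under 0.05 the members were Hk2 and Phkg1 in wild type, beside 89 genes in all, and 0 in the knockout, beside 170. The median member difference, contracted minus resting, was 0.06 in wild type and -0.01 in the knockout, against -0.0004 and -0.01 over all genes. Members were higher after contraction in 22 of 27 cases in wild type and in 13 of 27 in the knockout, where 49.8% and 46.5% of all genes were higher.

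Hk2 was higher after contraction in every pair of same-numbered samples. Its contracted samples were above the resting sample of the same number in 7 of 7 pairs in wild type, by 0.01 to 0.91, and in 7 of 7 pairs in the knockout, by 0.04 to 0.76. The mean shift was 0.40 (SE 0.17, limma p = 0.0258, limma adjusted p = 0.9999, exact two-sided permutation p = 0.00291) in wild type. In the knockout it was 0.34 (SE 0.17, limma p = 0.0538, limma adjusted p = 0.9999, exact two-sided permutation p = 0.158). The difference between the genotypes' shifts was -0.06 (SE 0.24, 95% interval -0.55 to 0.43). Of the 27 members 1, Hk2, was higher in 7 of 7 pairs of each genotype, and 0 were lower in 7 of 7 pairs of either. Over all 8389 genes 10, or 0.119%, were higher in 7 of 7 pairs of each genotype, and 1.84% were lower in 7 of 7 pairs of either.

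Over all genes, same-numbered resting and contracted knockout samples deviated together in 7 of 7 pairs, so a fit that blocks on the number was also run. In wild type 5 of 7 did, with a mean correlation of 0.265, and 3 of 7 matched best with their own number. Whether the numbers pair the wild-type samples is therefore not settled. The block raised the genes that passed in the knockout from 1 to 57, or 0.679% of all genes, and the members that passed stayed at 0. Among 55 genes that border on the pathway, Gfpt2, an enzyme of the hexosamine branch, was the 1 that passed with the block: it rose by 0.74 with contraction in the knockout (limma adjusted p = 0.0199 with the block, 0.534 without). In wild type Gfpt2 was also higher after contraction, by 0.49 (SE 0.13, limma adjusted p = 0.7115 with the block). With the block Hk2 had a limma adjusted p of 0.341 in the knockout. Ppp1r3c was lower after contraction in 6 of 7 knockout pairs, by -0.29 in the mean (limma adjusted p = 0.339 with the block), and in 3 of 7 wild-type pairs. Pygm was higher in 6 of 7 wild-type pairs and in 3 of 7 knockout pairs. Its shift was 0.26 (SE 0.17) in wild type and -0.09 (SE 0.17) in the knockout, and the test of that difference gave -0.35 (SE 0.24, limma adjusted p = 1).

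**Figure D4:**
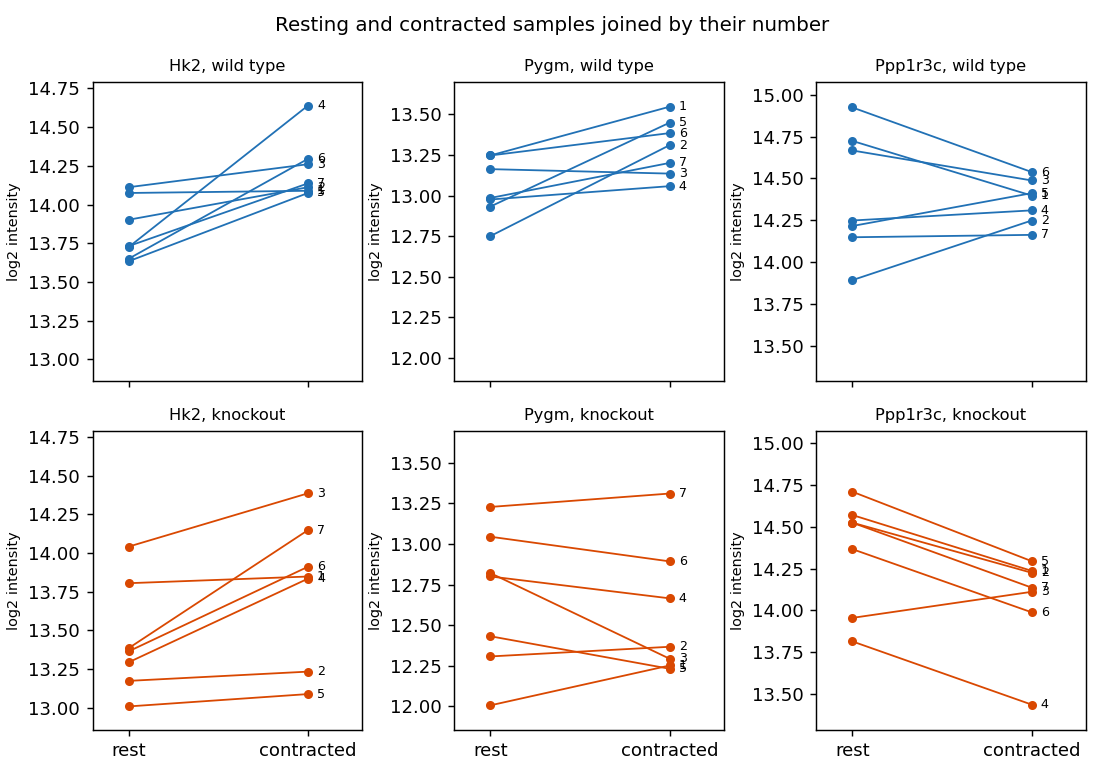
Log2 intensity of Hk2, Pygm and Ppp1r3c at rest and after contraction, with lines joining samples of the same number (7 lines, numbered, wild type above and knockout below). All Hk2 lines slope upward in both genotypes, and 6 of 7 Pygm lines do so in wild type and 3 of 7 in the knockout.

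The last comparison asked whether the response to contraction differed between the genotypes. In it 0 of 27 members and 0 of all genes passed limma's adjusted p of 0.05, and 0 members and 52 genes had an unadjusted p under 0.05. The member median was -0.10 against -0.003 over all genes. The intervals stayed wide: for Phkg1 the difference of -0.34 had a 95% interval of -0.75 to 0.06, and for Gpd1 the difference of -0.32 one of -0.75 to 0.11.

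Genes that border on the pathway were counted in the same fit, where 4.54% of all genes rose and 4.33% fell after contraction. Of these 55 genes, in 5 lists, 8 passed after contraction and 1 at rest; with the sample number as a block across genotypes 0 and 1 did. Of 9 other glycolytic genes tested, 1 rose after contraction in the knockout relative to wild type and 0 fell: Adpgk, an ADP-dependent glucokinase, was higher by 0.48 (SE 0.12, limma adjusted p = 0.0128). Of 15 other glycogen genes 0 rose and 1 fell, the calmodulin gene Calm3, whose product is also a subunit of phosphorylase kinase, by 0.49 (SE 0.12, limma adjusted p = 0.0144). At rest 0 of each list passed limma's adjusted p, with 2 of 9 and 3 of 15 genes at an unadjusted p under 0.05, near the 21.8% of all genes.

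The list of lactate, pyruvate and NADH shuttle genes lay on the low side. All 11 tested genes were below 0 in the knockout in both states, with a median of -0.30 at rest and -0.39 after contraction, against -0.01 in each over all genes, of which 51.3% and 52.4% were below 0. Mdh1, the cytosolic malate dehydrogenase, was the 1 gene of 11 that fell at rest (by 0.46, limma adjusted p = 0.0459), beside 1.93% of all genes. After contraction 2 of 11 fell: Slc25a11, the mitochondrial carrier of malate and 2-oxoglutarate, by 0.42 (limma adjusted p = 0.0207) and Ldhd, a mitochondrial D-lactate dehydrogenase, by 0.40 (limma adjusted p = 0.0356). Mdh1 and Slc25a11 belong to the malate-aspartate shuttle, which moves the same reducing equivalents as Gpd1 and Gpd2.

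Of 10 genes of glucose entry and side branches 1 rose after contraction and 0 fell. The knockout was lower in 7 of these 10 and higher in 3, where 52.4% of all genes were lower. Their median was -0.27 against -0.01 over all genes, and 6 of 10 had an unadjusted limma p under 0.05, beside 26.3% of all genes. Slc2a1, the widely expressed glucose transporter GLUT1, was higher in the knockout by 0.60 (SE 0.13, limma adjusted p = 0.0043). GLUT1 is also abundant in cells other than muscle fibres. In the same comparison 9 of 9 endothelial and mural markers had a negative difference (median -0.21). Of 5 macrophage markers tested in it 4 had a positive difference and 1 a negative one. Of these 1 passed, Mrc1, which rose by 0.90 (limma adjusted p = 0.0301), and 0 did with the sample number as a block across genotypes. The part of other cells in the Slc2a1 difference was not tested. Of 10 regulators of glycolysis 0 rose and 3 fell after contraction. Txnip, a thioredoxin-binding arrestin that restrains glucose uptake, fell by 0.79 (SE 0.23, limma adjusted p = 0.0305). Prkab2, the muscle-rich AMPK subunit that carries a glycogen-binding module, fell by 0.71 (SE 0.17, limma adjusted p = 0.0101). Egln1, a prolyl hydroxylase that marks hypoxia-inducible factors for decay, fell by 0.44 (SE 0.14, limma adjusted p = 0.0476). At rest 0 of either list passed limma's adjusted p, with 2 of 10 and 1 of 10 genes at an unadjusted p under 0.05.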

How the data were processed

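RNA of 28 muscle samples had been isolated with TRIZOL and silica columns, amplified with T7 polymerase, labelled with biotin and hybridised to Illumina arrays, per the labels' protocols. The authors deposited normalized probe intensity values for 25697 probes, from -36.1 to 50215 with 27.2% below 0. The submitters' processing notes list R 3.1.2, lumi 3.0 and limma 3.1 without saying what each did. Their near-equal quantiles show quantile normalization, which hides any shift shared by most genes. Non-normalized intensity and detection p-value columns were deposited in another table, per the file headers. Its columns matched sample labels for 7 arrays of resting wild type, and the other 21 were not used. The median normalized intensity near a detection p-value of 0.05 was 24.5, and probes over 24 on at least 7 arrays were kept (11723). Probe symbols came from a table of GEO's platform annotation, with 1 symbol for 23978 probes and none for 1719, and all 34 members with a probe were matched to RefSeq by gene ID.

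Intensities were corrected with normexp (offset 50), set on the log2 scale and fitted with limma 3.58.1 in R 4.3.3 as 4 group means, with Benjamini-Hochberg adjustment over 8389 genes and a threshold of 0.05. The median SE of the resting genotype comparison was 0.13, and the number of arrays limits the precision. Exact two-sided permutation tests of 7 against 7 samples can reach 0.000583. The fit was tested on simulated data drawn independently for each sample, so that test did not cover the correlation of same-numbered samples. Members, gene lists and tests were chosen with earlier results of these data known. Described in full were the members that passed and, up to 6 in all, those with the next smallest p; of the related lists, the genes that passed were named, at most the 4 with the smallest p per list and comparison.

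Deviations from group means correlated in 7 of 7 same-numbered knockout pairs of rest and contraction (0.37 to 0.85) and above 0.1 in 5 of 7 wild-type pairs, where the numbers are the labels' replicate numbers. Alternatives were other background, filter, scaling, array-weight, block and leave-out settings.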

Additional observations from a re-analysis of the deposited data

Results flagged for a closer look

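Over 108 sets of 7 samples (27 members in 4 groups), 9 had a sample whose gap to its nearest neighbour, over the range of the group, passed Dixon's 95% limit for 7 samples, and chance gives about 1 in 20. In contracted wild type, sample 4 was the highest for Hk2 (14.64, next 14.30) and Pfkfb3 (7.59, next 6.95) and the lowest for Gys1 (7.78, next 8.39). That sample also had the lowest slow-fibre sum of its group, 34610, and the highest adipocyte sum, 2705, and their part in these values was not tested. Contracted wild-type sample 7 was the lowest for Phkb (9.90, next 10.16). In resting wild type, sample 2 was the lowest for Pgam1 (6.38, next 6.98) and sample 7 the lowest for Phkg2 (7.48, next 7.91). In the resting knockout, sample 1 was the lowest for Gpd2 (9.69, next 9.94). In the contracted knockout, sample 7 was the highest for Phka1 (8.78, next 8.30) and sample 4 the lowest for Ppp1r3c (13.44, next 13.99).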

How the results depend on the processing

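Ugp2 passed after contraction under every setting run, with an adjusted p of 0.000963 to 0.0448. Pygm passed in all but the fit with the replicate number as a block (adjusted p = 0.0631), and Gpd2 lost its call with no normexp, no dim filter, cyclic loess, trended and robust eBayes, only the compared groups, the block and each of 3 leave-out sets chosen after seeing the data (adjusted p = 0.0505 to 0.119). The cause of these losses was not tested. Outside the leave-one-out settings these losses were 10, of 2 member differences, and there were 14 gains, of 8 member differences; none reversed. Array weights gave 1 member down at rest and 9 after contraction, with 481 genes up and 470 down at rest, 1305 up and 1310 down after contraction, 1 up with contraction in wild type, 46 up in the knockout and 2 up in the difference. The lowest weights were 0.371 and 0.374, of contracted knockout samples 5 and 7. With the replicate block, 1 member fell after contraction among 79 genes up and 70 down; contraction moved 1 gene up in wild type, and 53 up and 4 down in the knockout. A random block gave 1 and 33 up. Across genotypes same-numbered samples had a mean correlation of 0.001 after contraction (3 of 7 over 0.1) and 0.17 at rest (4 of 7). In each state 3 of 7 matched best with their own number, so any pairing was weak. No dim filter gave 100 genes up and 107 down at rest, and only the compared groups gave 105 down at rest and 0 up with contraction in the knockout. Contraction in the knockout had 4 genes up with no normexp and 4 without lymphocyte-high samples. Leaving out slow-fibre-low samples gave 236 genes up after contraction. Leaving out adipocyte-high samples gave 2 members down and 259 genes up at rest, 6 members down after contraction, and 23 genes up with contraction in the knockout. Leaving out 1 sample at a time, members down were 0 to 1 at rest and 2 to 6 after contraction. Genes up and down were 52 to 325 and 57 to 351 at rest and 209 to 810 and 200 to 892 after contraction, and 1 to 8 rose with contraction in the knockout.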
